A study of Homo sapiens with 6 samples.

Results

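The regions described here were the ChIRP-seq peaks of the lncRNA CRLM1 whose own sequence resembled a 129 bp stretch. The stretch lies at the annotated 3' end of the CRLM1 gene, LINC01767. The members are the peaks with this resemblance. They were chosen by sequence alone. A peak was a member when its GRCh38 sequence gave a blastn alignment with an E value of at most 1e-6 to chr1:56417009-56417137, on either strand. On the 22 autosomes and chromosome X, 3228 of the 36753 peaks were members and 33521 had no such hit. The 4 peaks at the CRLM1 locus itself, 1 in each peak list, had no hit to the stretch and were left out.

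The cells were HCT116, an established human colorectal carcinoma line. ChIRP captures an RNA with biotinylated antisense oligos and sequences the chromatin DNA that comes down with it. The 6 libraries formed 3 groups of 2 replicates: a pull-down with CRLM1 antisense oligos, a pull-down with LacZ antisense oligos against a bacterial RNA that human cells lack, and genomic DNA taken as Input and labelled as control. The labels name no other treatment or genetic change, and they do not say whether the replicates came from separate cultures. Peaks of the CRLM1 pull-down were called by the authors in each replicate, once against Input and once against LacZ, which gave 4 lists. The lists of 1 replicate share the pull-down library and are not independent of each other. The lists are named here by replicate and control, so that R1-Input is the list of the first replicate called against Input. They held 9317 peaks (R1-Input), 10308 (R1-LacZ), 16765 (R2-Input) and 363 (R2-LacZ). The locus peaks scored 1008.27, 1466.89, 1580.45 and 935.57 in that order. Peaks elsewhere reached 1505.6, 675.47, 1670.1 and 239.02, so both Input-called lists held a higher score than the locus. All 4 locus peaks match the capture oligos, so they do not check RNA recovery apart from direct capture of the locus DNA. No read counts were given, so the depth of the libraries is unknown.

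The stretch resembles the left arm of an Alu element. Alu elements are short primate retrotransposons that derive from 7SL RNA, the RNA of the signal recognition particle, and they are the most numerous repeats in the human genome. They are rich in G and C, accumulate in introns and in gene-rich chromosomes, carry an internal RNA polymerase III promoter with an A box and a B box, and are followed by runs of A. Many lncRNA exons contain such copies. Short reads from a repeat can fit several places in the genome, and how the authors' alignment placed them is not given in the sources used here.

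The stretch lies in exon 2 (chr1:56415782-56417137) of 1 of the 9 annotated LINC01767 transcripts and ends at the last base of the annotated gene. The paper describes CRLM1 as an RNA shorter than this exon, from a gene that ends further along the chromosome. The RNA studied may therefore lack the stretch, which was not tested. Positions are counted from 1 at the 5' end of the stretch. Bases 75 to 83 are at the position of the Alu B box. At least 50% of the members' hits covered each of the 75 positions from 13 to 87.

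The commonest base among the members' hits differed from that of the stretch at 11 of these 75 positions. The stretch's own base was rarest at position 17, where 2.13% of the hits had it. Positions 48 (5.08%), 51 (7.46%), 70 (8.76%) and 50 (11.4%) followed. At positions 46, 69 and 78 the stretch's base was in 44.8%, 44.5% and 43.5% of the hits. At positions 17, 48, 50, 51 and 70 LINC01767 carries a base that few members share. Of the annotated small RNAs searched, RN7SL2, a 7SL RNA gene, matched the stretch over 19 bases (bases 85 to 103, 94.7% identity, E = 1.4e-04), whereas RN7SL1, BCYRN1, RN7SK, RNU6-1, RNA5S1 and RNY1 gave no alignment at an E value of 0.01. The weakest hit inside the limit had 51.8 bits (E = 3.9e-07) and the strongest hit outside it had 50.9 bits (E = 1.4e-06).

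The members' hits were partial copies. Median identity was 78% in R1-Input, 77.9% in R1-LacZ, 78.1% in R2-Input and 77.7% in R2-LacZ. Median aligned length was 75, 75, 75 and 76 columns. Genome windows with a hit, cut to the median width of each list, had a median identity of 78.1% in all 4 comparisons and a median aligned length of 75 columns. Position 40 of the stretch was covered by 99.3% of the hits and position 100 by 34.3%, beside 99.7% and 29.9% of the 700539 copies found in the genome. The members' share was above that of genomic copies from position 86 to 126 and below it at all other positions, with 18.2% beside 19.2% at position 12 and 12.4% beside 13.7% at position 128.

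**Figure D1:**
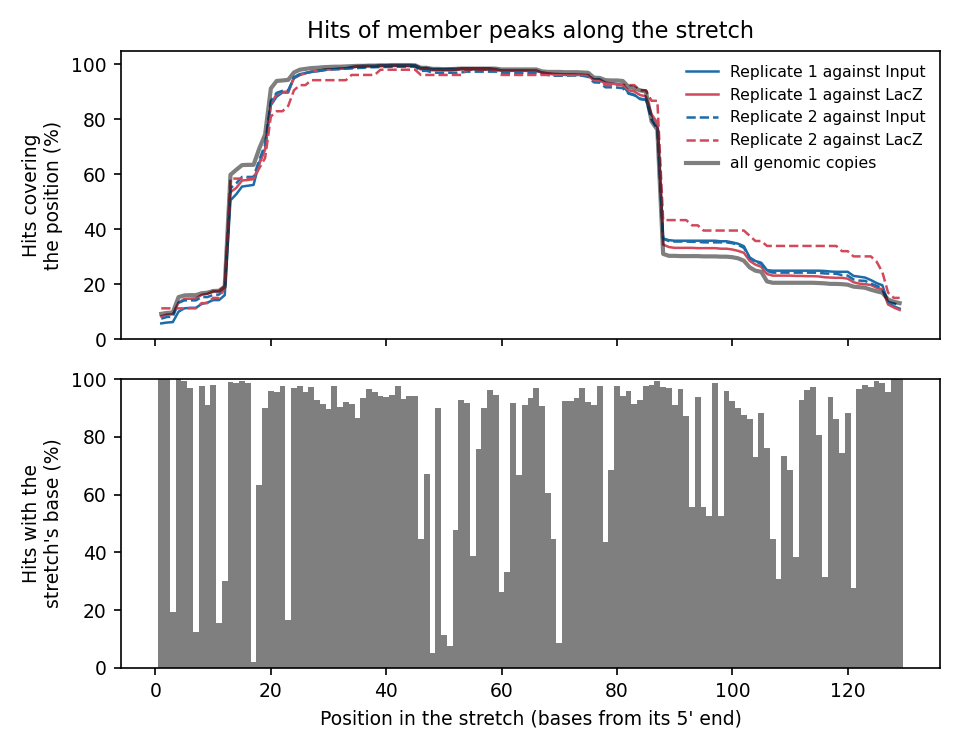
Hits of member peaks along the 129 bp stretch. The upper panel plots, for each position from the 5' end, the percent of hits that cover it in each of the 4 lists (blue, against Input; red, against LacZ; solid, replicate 1; dashed, replicate 2) and in all genomic copies (grey line), and the lower panel the percent of covering hits that have the base of LINC01767. Coverage falls after position 87 in every list, and low bars such as position 17 (2.13%) mark bases rare among the members.

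The stretch was not part of what the capture oligos target. All 9 CRLM1 oligos matched LINC01767 between 56414963 and 56415952, and the last of these bases lies 1057 bp before the stretch. No oligo matched the stretch even at an E value of 10, and 0 members had an oligo match at an E value of 0.01. The 4 locus peaks were the peaks with such a match. The locus peaks themselves ended 788 bp (replicate 1) and 948 bp (replicate 2) before the stretch.

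How common the repeat was in the peaks was compared with the rest of the genome. The share of members was 6.82% in R1-Input (635 of 9316, 95% interval 6.31 to 7.35) and 10.7% in R1-LacZ (1108 of 10307, 10.2 to 11.4). It was 8.54% in R2-Input (1432 of 16764, 8.12 to 8.98) and 14.6% in R2-LacZ (53 of 362, 11.2 to 18.7). Of genome windows as wide as the median peak of each list (389, 395, 402 and 506 bp), 7.91%, 8.03%, 8.18% and 10.3% had a hit. The ratio of peaks to windows was 0.862, 1.34, 1.04 and 1.42. Both LacZ-called lists were above their windows, R1-Input was below, and R2-Input included the windows' share in its interval. With 400 bp around each midpoint searched, R2-LacZ had a share of 10.8% (7.77 to 14.4) beside 8.14% of 400 bp windows, and its interval then included the windows' share. Intervals here are Clopper-Pearson for shares, Newcombe for differences of shares and order-statistic based for medians. They cover counting error only, since peaks of a list are not replicates of a condition, and no test was made over peaks.

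The result against Input changed when windows were weighted by base composition. Peaks of the Input-called lists were poorer in G and C than the genome. Of the peaks of R1-Input, 30.3% were below 35% GC and 32.6% between 35 and 40%, beside 25.9% and 24.4% of windows. In R2-Input the shares were 29.2% and 27%, beside 25.1% and 24.9% of windows. Windows weighted to the GC bands of the peaks had a hit in 5.88%, 9%, 7.14% and 10.4% of cases, and the ratios became 1.16, 1.19, 1.2 and 1.4. R1-Input thus moved from below its windows to above them. In the 40 to 45% GC band, 12% (10.7 to 13.4), 14.2% (12.8 to 15.6), 12.3% (11.3 to 13.4) and 24% (15.8 to 33.7) of peaks were members, where 9.25%, 9.23%, 9.64% and 15.4% of windows had a hit. In the 45 to 50% band the 2 sides were closer, with 21.1% (18.5 to 23.9), 21.5% (19.7 to 23.4), 23.7% (21.9 to 25.5) and 24.5% (13.8 to 38.3) of peaks and 22.1%, 22.1%, 22.3% and 25.3% of windows. Weighting by GC bands was chosen after seeing the data. The GC of a peak includes that of its own hit, so the weighting is not independent of membership. A list with fewer hits can thereby get a lower expected share, here and in the control classes below.

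**Figure D2:**
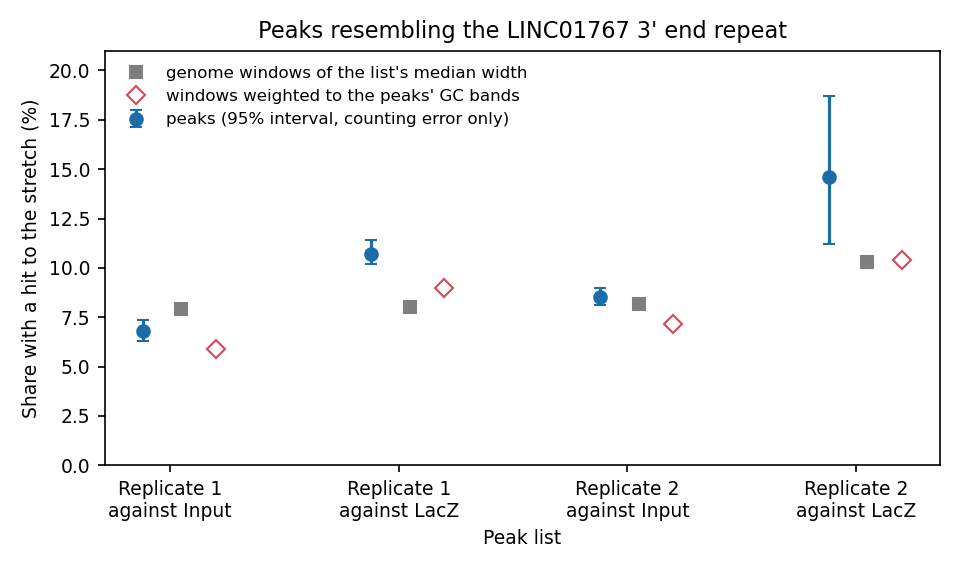
Share of peaks with a hit to the stretch in the 4 lists (blue points, percent, bars give the 95% Clopper-Pearson interval for counting error), beside genome windows of the list's median width (grey squares) and the same windows weighted to the GC bands of the peaks (open red diamonds). The peaks lie above the GC-weighted windows in all 4 lists, with 14.6% against 10.4% in R2-LacZ, whereas R1-Input (6.82%) lies below its unweighted windows (7.91%).

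The share was compared with the repeat content of the chromosomes. Chromosome 19, a gene-rich chromosome, had 11.1% members in R1-Input (7 of 63 peaks), 25.4% in R1-LacZ (54 of 213) and 15.6% in R2-Input (35 of 225), where 18.7%, 18.9% and 19.2% of its windows had a hit. Chromosome 4 had 5.07%, 9.56% and 6.34% members where 5.51%, 5.59% and 5.7% of windows had a hit. Over the 23 chromosomes, Pearson's r between the peaks' share and the windows' share was 0.712, 0.936 and 0.894 in these lists and Spearman's rho was 0.73, 0.799 and 0.936, a description over chromosomes that share their libraries and their base composition. In R1-LacZ, 0 of 23 chromosomes fell below their windows, beside 16 of 23 in R1-Input and 9 of 23 in R2-Input. R2-LacZ had at least 20 peaks on 7 chromosomes and fell below the windows on 1 of them, with r of 0.404 and rho of 0.393.

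Seen from the repeat, few copies lay under a peak. Of the 700539 genomic copies, 924 (0.132%) touched a peak of R1-Input, 1631 (0.233%) a peak of R1-LacZ, 2110 (0.301%) a peak of R2-Input and 81 (0.0116%) a peak of R2-LacZ. Copies filled 1.7%, 2.78%, 2.15% and 3.24% of the peak bases, beside 2.01% of the genome, which gave ratios of 0.844, 1.38, 1.07 and 1.61. Percent identity to LINC01767 over the aligned part did not order the copies. Copies at 85% identity or more touched a peak in 0.136% (0.0959 to 0.186), 0.225% (0.173 to 0.287), 0.271% (0.214 to 0.339) and 0.0143% (0.00389 to 0.0365) of cases. Copies at 75 to 80% did so in 0.121% (0.11 to 0.133), 0.219% (0.203 to 0.234), 0.282% (0.265 to 0.3) and 0.0118% (0.00854 to 0.016), so the intervals of the 2 classes overlapped in every list. Copies under 75% identity had the highest shares in 3 lists, 0.171%, 0.29% and 0.375%, and 0.0123% in R2-LacZ. Since copies were kept by E value, those of low identity had to align over more bases to be kept. A longer copy can touch a peak more easily, and the classes were not matched for length. By E value the direction was the other way. Copies with an E value of at most 1e-10 touched a peak in 0.142%, 0.246%, 0.319% and 0.0146% of cases. These shares were slightly above those of all copies, with overlapping intervals in every list.

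The control used for calling moved the share of members. In replicate 1, 5612 peaks were called against LacZ only, and 740 of them (13.2%, 12.3 to 14.1) were members. Of 4621 peaks called against Input only, 267 (5.78%, 5.12 to 6.49) were members, and of 4695 called against both, 368 (7.84%, 7.09 to 8.64). The LacZ-only peaks exceeded the Input-only peaks by 7.41 percentage points (6.29 to 8.52). Median GC moved with these classes, with 44.1% in the LacZ-only peaks, 37.7% in the Input-only peaks and 38.1% in the shared ones. Windows weighted to the GC bands of each class had a hit in 11.3%, 5.44% and 6.3% of cases, and the ratios were 1.17, 1.06 and 1.24 for LacZ only, Input only and both. The order of the classes therefore changed once GC was weighted in.

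Replicate 2 had few peaks called against LacZ. Of 343 peaks called against both controls, 50 (14.6%, 11 to 18.8) were members, and of 16421 called against Input only, 1382 (8.42%, 8 to 8.85), a difference of 6.16 points (2.79 to 10.3). The shared peaks were wider, with a median of 495 bp beside 401 bp, and GC-weighted windows of 506 and 400 bp had a hit in 10.5% and 7.03% of cases (ratios 1.39 and 1.2). Only 19 peaks were called against LacZ alone, 3 of them members (15.8%, 3.38 to 39.6), too few to place the share against the other classes.

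**Figure D3:**
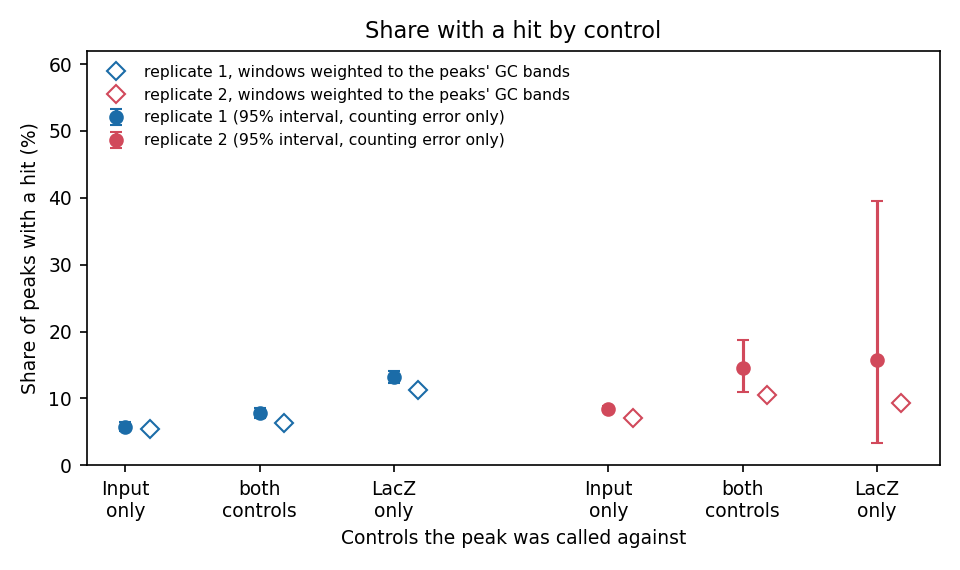
Share of peaks with a hit (percent) by the controls the peak was called against, in replicate 1 (blue) and replicate 2 (red). Points are the peaks with 95% Clopper-Pearson intervals for counting error, and open diamonds are genome windows weighted to the GC bands of the same peaks. In replicate 1 the LacZ-only peaks stand highest (13.2%), and their GC-weighted windows rise with them (11.3%).

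Counted from the members, these classes read differently for each control. In R1-Input, 58% of members were called against both controls, beside 49.8% of other peaks (difference 8.11 points, 4.09 to 12) and 50.4% of all peaks. In R1-LacZ the same 368 members made up 33.2%, beside 47% of other peaks (difference -13.8 points, -16.7 to -10.8) and 45.6% of all. In R2-Input the shares were 3.49% of members and 1.91% of other peaks (difference 1.58 points, 0.716 to 2.68, and 0.713, -0.0581 to 1.73, with 400 bp searched), with 2.05% of all peaks. In R2-LacZ they were 94.3% and 94.8% (difference -0.482 points, -10.4 to 4.34), with 94.8% of all.

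Recurrence between replicates was rare for members, as for peaks in general. Against Input, 9 of 635 replicate 1 members (1.42%) overlapped a replicate 2 peak by at least 1 bp, beside 1.66% of other peaks and 1.64% of all. Of the replicate 2 members, 9 of 1432 (0.628%) overlapped a replicate 1 peak, beside 0.913% of other peaks and 0.889% of all. The differences were -0.241 points (-0.972 to 1.04) and -0.285 points (-0.624 to 0.294), so both intervals included 0. In 5 of the 9 overlaps the partner was itself a member. Against LacZ, 0 of 1108 and 0 of 53 members recurred, which allows shares of up to 0.332% and 6.72%, beside 0.0485% and 1.38% of all peaks.

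Merged over the lists, the members made up 2804 distinct regions, of which 6 were called in both replicates. The 5 with the highest mean score are described here. The strongest overlapped GH1, the growth hormone gene, with its midpoint outside the gene, at chr17:63916517-63917343 in both lists of replicate 1 and chr17:63916701-63917336 in R2-Input. It scored 803 in R1-Input, where 4 non-locus peaks scored higher, 129.86 in R1-LacZ and 1164.51 in R2-Input, where 1 non-locus peak scored higher. It was not called in R2-LacZ. Its hit had 69 columns at 76.8% identity and 53.6 bits, close to the limit of 51.8 bits. The next member scored 123.26 in R1-Input and 157.4 in R2-Input.

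The other 4 regions scored between 52.38 and 81.52, and the lowest score in any list was 50. In an intron of CROCC2, a gene of the ciliary rootlet family, the peaks of R2-Input and R1-LacZ scored 81.52 and 55.86. In an lncRNA intron 95841 bp from TMEM74, the Input-called peaks scored 66.8 in replicate 2 and 53.1 in replicate 1. A region 6868 bp from LGALS8, the galectin-8 gene, scored 56.32 and 60.87 in replicate 1 (against Input and LacZ) and 59.53 in R2-Input. In an intron of GULP1, an engulfment adaptor gene, the scores were 55.61 and 56.2 in replicate 1 and 52.38 in R2-Input.

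Median scores of members were slightly above those of other peaks. The score is the caller's own value on a scale that is not stated, and it was compared only within a list. Median scores of members and other peaks were 56.8 and 56 in R1-Input, a difference of 0.75 (-0.0661 to 1.64). They were 58.9 and 57.8 in R1-LacZ, a difference of 1.12 (0.249 to 1.71). They were 58.5 and 57.7 in R2-Input, a difference of 0.735 (0.0493 to 1.22). In R2-LacZ they were 56.7 and 56, a difference of 0.67 (-1.78 to 2.79). The interval excluded 0 in R1-LacZ and R2-Input. With 400 bp searched it included 0 there too, with differences of 0.48 (-0.174 to 1.37) and 0.43 (-0.065 to 1), and the difference turned to -1.55 (-2.83 to 2.47) in R2-LacZ. Among the higher-scoring peaks of R1-Input it turned to -0.14.

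A score of at least 60 was reached by 37.5% of members in R1-Input, beside 34.3% of all its peaks, and by 45.2% of members in R1-LacZ, beside 41.3% of all. It was reached by 43.2% in R2-Input, beside 40.4% of all, and by 30.2% in R2-LacZ, beside 27.6% of all. Against other peaks the differences were 3.39 (-0.419 to 7.35), 4.36 (1.29 to 7.47), 3.04 (0.375 to 5.73) and 3 points (-8.87 to 17.1). With 400 bp around each midpoint searched these differences became -0.487 (-4.22 to 3.43), 2.39 (-0.678 to 5.49), 1.34 (-1.36 to 4.08) and -7.97 points (-19 to 7.75), so that every interval included 0 and the direction turned in R1-Input and R2-LacZ. From the lowest to the highest of 4 score groups of equal size, the share of members went from 6.14% to 7.17%, from 9.2% to 12.4%, from 7.68% to 9.93% and from 11.1% to 15.4%. The intervals of the lowest and highest groups did not overlap in R1-LacZ (8.11 to 10.4 and 11.1 to 13.7) and in R2-Input (6.89 to 8.53 and 9.04 to 10.9). They overlapped in the other 2 lists.

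Members were wider and richer in G and C than other peaks. Median widths of members were 419, 420, 420 and 553 bp, beside 388, 393, 400 and 491 bp, and the interval of the difference included 0 in R2-LacZ (-4.85 to 145). A wider peak offers more sequence to match. When 400 bp around each midpoint was searched instead, the width differences of 31, 27, 20 and 62 bp became 4, 0, -1 and -20 bp. Median GC was 43.5%, 45.7%, 45.1% and 44.1% in members and 37.5%, 40.5%, 38.1% and 39.2% in other peaks, differences of 5.97 (5.61 to 6.52), 5.13 (4.63 to 5.54), 6.94 (6.58 to 7.28) and 4.9 points (3.42 to 7.42). Windows with a hit were richer still than members, with medians of 46.8%, 46.8%, 46.8% and 45.5%. Other peaks of the Input-called lists were likewise below windows without a hit, whose medians were 39.3% and 39.3%.

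Hits lay off the middle of the peaks more often than in windows. The midpoint of the hit fell in the central 50% of the peak in 50.6% (46.6 to 54.5), 52.3% (49.4 to 55.3), 48.4% (45.8 to 51) and 41.5% (28.1 to 55.9) of members. In windows with a hit it did so in 56.9%, 56.7%, 56.7% and 55.5%. Median distances from the peak midpoint were 99.5, 94.75, 104.5 and 147 bp, beside 85.5, 87, 89 and 114.5 bp in windows. Members were wider, with medians of 419, 420, 420 and 553 bp beside windows of 389, 395, 402 and 506 bp. A hit has more room away from the middle of a wider peak, and widths were not matched. In the 3 larger lists the interval of the central share lay below the windows' share.

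**Figure D4:**
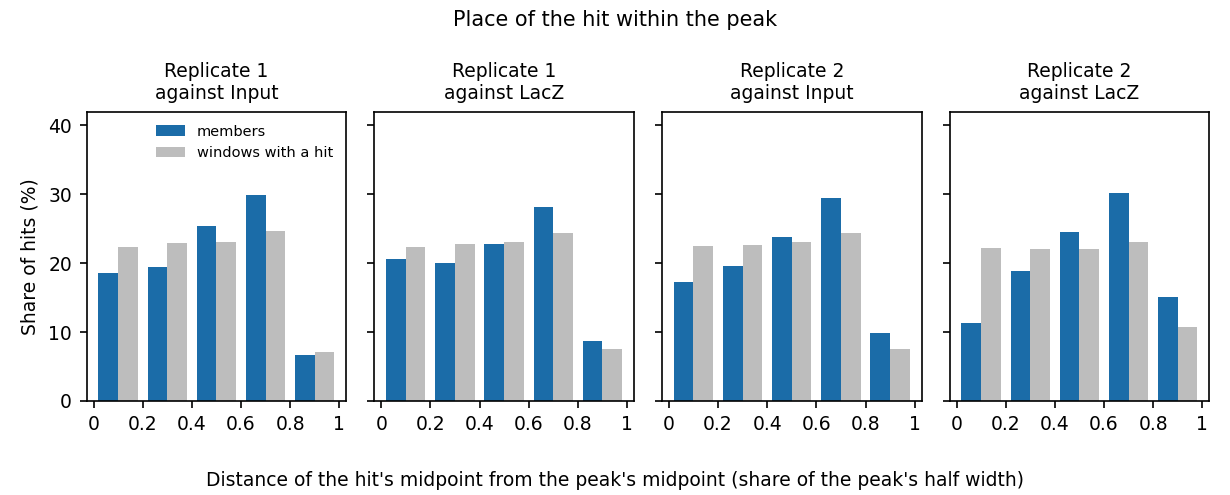
Place of the hit within the peak in the 4 lists, where members were wider at the median than the windows. Bars give the percent of hits by the distance of the hit's midpoint from the peak's midpoint, scaled from 0 at the midpoint to 1 at the peak's end in 5 equal bins, for members (blue) and for genome windows with a hit (grey); members are fewer in the innermost bin (18.6%, 20.6%, 17.2% and 11.3%) than windows (22.4%, 22.3%, 22.5% and 22.2%).

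Runs of A or T lay near the middle of the peaks. Such runs follow Alu arms, and a run was counted where at least 10 A or at least 10 T stood in a row. Of members, 52.4% (48.5 to 56.4), 56% (53.1 to 59), 54.8% (52.2 to 57.4) and 71.7% (57.7 to 83.2) had a run, beside 29.6%, 30.2%, 30.8% and 38.3% of windows with a hit. Runs were also more frequent in other peaks (27%, 29.4%, 25.9% and 46.9%) than in windows without a hit (10.6%, 10.7%, 10.8% and 12.7%). The members' share was above that of windows with a hit by more than counting error in all 4 lists, and other peaks were above windows without a hit as well. Placement of the runs was examined after seeing the data.

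The runs of members had much the same base and side, relative to the hit, as those of windows. Read in the direction of the hit, the run nearest to the hit was of A in 93.7%, 92.3%, 92.5% and 94.7% of members with a run, beside 92.6%, 92.7%, 92.6% and 91.4% of windows. It was an A run that followed the hit in 72.1%, 65.4%, 68.3% and 73.7%, beside 69.7%, 70.1%, 70.2% and 70.6% of windows. Its place in the peak differed from windows. Among members with a single run, the run lay in the central 50% of the peak in 64.8% (58.7 to 70.5), 66.6% (62.3 to 70.7), 63.7% (59.8 to 67.5) and 84% (63.9 to 95.5), beside 41%, 42.1%, 43.2% and 50.6% of windows with a hit and a single run. Other peaks with a single run had 63.9%, 65.8%, 65.2% and 71.3%. The hit itself takes up room in windows and in members alike. Members were wider at the median than the windows and poorer in G and C than windows with a hit. Neither was matched for the runs, so the comparison of shares and places is a description. The part of read mapping in the runs was not tested.

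**Figure D5:**
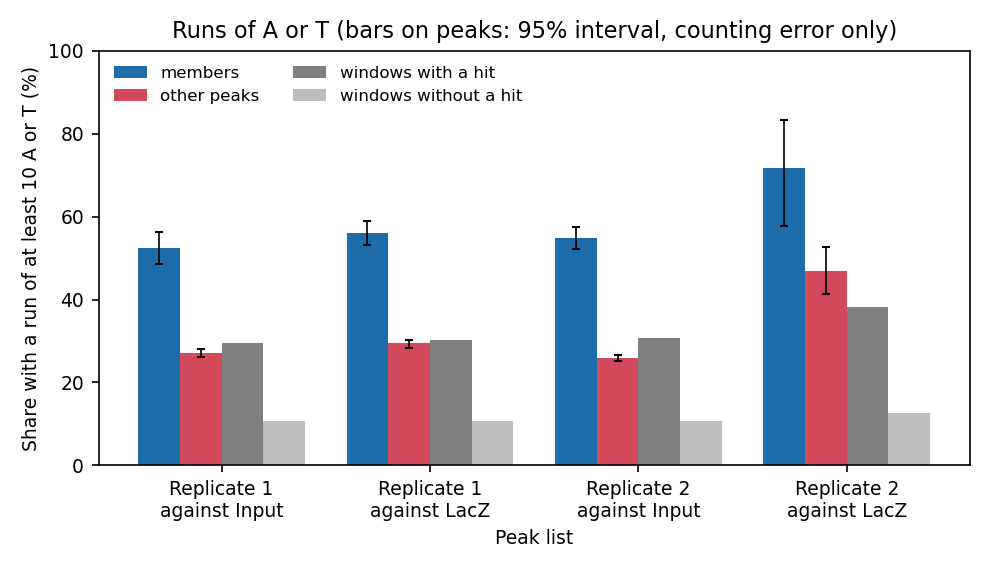
Share of peaks and of genome windows with a run of at least 10 A or T (percent, axis from 0) in the 4 lists. Blue bars are members, red bars other peaks (black lines, 95% Clopper-Pearson intervals for counting error), dark grey bars windows with a hit and light grey bars windows without one; members stand highest in every list (52.4%, 56%, 54.8% and 71.7%).

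The B box of the repeat was compared by its letters, on both strands. GTTCGAGAC, which holds the CpG of young copies, occurred in 12.6% (10.1 to 15.4), 15.3% (13.3 to 17.6), 13.2% (11.5 to 15.1) and 11.3% (4.27 to 23) of members, beside 17.9%, 18%, 18% and 18.7% of windows with a hit and 2.1%, 2.13%, 2.17% and 2.73% of all windows. GTTTGAGAC, the form with T that LINC01767 carries, occurred in 26.6% (23.2 to 30.2), 25% (22.5 to 27.7), 25.1% (22.8 to 27.4) and 28.3% (16.8 to 42.3), beside 22.6%, 22.7%, 22.7% and 23.5% of windows with a hit and 2.51%, 2.55%, 2.59% and 3.26% of all windows. The CpG form was thus less frequent in members than in windows with a hit, by more than counting error in the 3 larger lists. The T form was more frequent in all 4 lists, by more than counting error in R1-Input and R2-Input. The 2 forms differ in 1 base and do not overlap as matches.

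Members lay in gene bodies and before transcription starts at higher shares than other peaks, by more than counting error in some lists. The midpoint fell in a gene body for 68.2%, 66.9%, 64.2% and 67.9% of members, where 60.8%, 64.8%, 60.3% and 66.3% of all peaks did. Against other peaks the differences were 7.98 points (4.12 to 11.6), 2.36 (-0.628 to 5.24), 4.27 (1.63 to 6.83) and 1.91 (-12.4 to 14.2). Among the higher-scoring peaks of R1-Input the difference was 5.33 (-0.0984 to 10.4), and with protein-coding genes only it was 7.45 (4.34 to 10.5) in R1-LacZ. In the 5 kb before a transcription start (TSS), 8.35%, 14.7%, 10.5% and 15.1% of members were found, beside 5.43%, 8.35%, 7% and 9.06% of other peaks and 12.5%, 12.6%, 12.5% and 12.4% of windows with a hit. The difference from other peaks excluded 0 in the 3 larger lists. Windows without a hit had 8.18%, 8.17%, 8.16% and 8.08%, so windows with a hit stood above them in the same direction. Untranslated or coding exons (UTR or CDS) held 0.157%, 1.17%, 0.768% and 1.89% of members, beside 2.18%, 4.55%, 2.43% and 2.27% of other peaks and 1.29%, 1.29%, 1.3% and 1.39% of windows with a hit. Set against windows with a hit, the share upstream was below in R1-Input (6.31 to 10.8, beside 12.5%) and R2-Input (9 to 12.3, beside 12.5%), above in R1-LacZ (12.7 to 16.9, beside 12.6%) and not told apart in R2-LacZ (6.75 to 27.6, beside 12.4%). The share in introns was above windows with a hit in R1-Input (62%, 58.1 to 65.8, beside 56.3%), and the intervals of the other 3 lists included 56.3%. Windows without a hit had 50.7%, 50.7%, 50.7% and 50.5% in introns. The higher shares of members upstream and in introns are thus also seen in windows that hold the repeat. No share in gene bodies was set against windows.

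The strand of the repeat was balanced. Hits on the plus strand made up 48.3% (44.4 to 52.3), 50% (47 to 53), 48.5% (45.9 to 51.2) and 50.9% (36.8 to 64.9). Within genes of 1 strand, the hit was antisense to the gene in 53.6% (48.6 to 58.6), 54.9% (51.1 to 58.7), 53.8% (50.3 to 57.2) and 66.7% (48.2 to 82) of members. Of all genomic copies in such genes, 53.7% were antisense, and this share was inside all 4 intervals.

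The hit's midpoint lay in a UTR for 24 members, over 24 genes, and in a coding sequence for 0. The UTR or CDS shares given before go by the midpoint of the peak or window instead. No share was set beside these counts by the hit's midpoint, so they do not show whether members favour or avoid exons. By bit score, the first 10 of these genes were ZNF207, A1CF, MCPH1, MRPS25, C9orf64, SH3BP2, NAPG, RECQL5, BCL10 and SOCS4. ZNF207, a spindle assembly protein gene, had 95.1 bits and a peak score of 62.11 in R1-LacZ. A1CF, which encodes the RNA-binding partner of the APOBEC1 deaminase, had 84.2 bits and a score of 76.56 in R2-Input. MCPH1, the microcephalin gene, had 80.6 bits and a score of 88.47 in R2-Input, and its peak was also called in R2-LacZ. It was the only one of the 10 called in 2 lists. BCL10, an adaptor of NF-kappaB signalling, had a score of 69.56 in R1-LacZ, and SOCS4, a suppressor of cytokine signalling, had 77.85 in R2-Input.

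Beside the GH1 region, the highest-scoring members lay in or near other genes. In R1-Input they were a site 13821 bp from SHANK2, a synaptic scaffold gene (123.26), and one 624362 bp from MCPH1 (118.04), and the latter scored 130.69 in R1-LacZ. SHCBP1L led R1-LacZ with 131.96. In R2-Input an intron of FARSB, a subunit of phenylalanyl-tRNA synthetase, scored 157.4, and a site 1713 bp from CORO1A, the coronin 1A gene, scored 135.68. In R2-LacZ the highest were an intron of SPATS2 (87.34), a site 15359 bp from NIPBL, the cohesin loader (82.56), and the FARSB peak (81.63). The hits with the highest bit scores included one with 123 bits in an lncRNA intron 32812 bp from ABCC4, those in introns of NLN (113 bits), TARBP1 (110), NOD2 (108) and TMEM67 (104), and one upstream of a TSS within FBN2 (109). The peaks at the last 5 of these scored between 54.53 and 79.25.

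Of the genes in 3 lists drawn from the study, 1 held a member. GALNT13, a polypeptide N-acetylgalactosaminyltransferase that starts mucin-type O-glycans, had an intronic member at chr2:153916006-153916427 in both lists of replicate 1 (scores 55.48 against Input and 55.55 against LacZ, 76.1 bits). It was the only one of the 6 genes described as bound (SMAD2, MAPK9, GSK3B, GALNT5, GALNT13 and GALNT18) with a member. Of these 6 genes, 3, 2, 4 and 0 had some peak in the 4 lists. The paper's bound genes come from a different set, pull-down peaks called against Input that did not overlap LacZ peaks. These counts therefore do not check its calls. None of the 19 genes described as regulated or tested had a member, and 4, 5, 4 and 0 had some peak. HNRNPK and PLPP3 had no member. Over all annotated genes, 4540, 6465, 7593 and 310 of 62062 had some peak in the body or 5 kb upstream. A member was held by 530, 989, 1170 and 50. Most genes with a peak thus held none, so the small counts above do not show a lack of members. In both replicates against Input 60 genes had a member, and in both against LacZ 4 did. A gene counts even where its members lie at different sites. Only 5 Input-called members of replicate 1 overlapped a member of replicate 2. The count of genes shared by both replicates was not made for all peaks. The 60 and 4 genes therefore have no background beside them and show no recurrence particular to members. The gene lists came from the study of these same samples, so these counts are not independent evidence.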

How the data were processed

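The peak lists were used as the authors deposited them, with position and a score per peak. The methods name cutadapt, Bowtie2, GRCh38 and MACS2. The score deposited by the authors has no stated scale, and no depth is known. The members and gene lists were chosen with earlier results of these data known. Peak sequences from GRCh38 were searched with blastn 2.17.0 (task blastn, word size 11, E up to 10, hits kept at 1e-6). A search run with 1e-6 as its limit gave 3227 members instead of 3228, and the missing one was in R1-LacZ. Non-overlapping genome windows of each list's median width, or for control classes of the available width nearest to the class's median, were searched at 1e-6 in the same search space. Features came from GENCODE release 44. Sequences of peaks and windows were extracted with bedtools 2.31.1. Overlaps were computed in Python with at least 1 bp, and intervals used scipy 1.17.1. Regions named were up to 5 members overlapping between replicates by mean score, the 3 with the highest score and bit score in each list, and members in exons. The search was tested on simulated data. Alternatives numbered 15. Weighting by chromosome and GC bands, the placement of runs and the width matching of control classes were chosen after seeing the data. With windows of the list's width (402 bp), the ratio of replicate 2 peaks called against both controls was 1.83 instead of 1.39. The sequences of the stretch and of the hits are not reported here.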

Additional observations from a re-analysis of the deposited data

Results flagged for a closer look

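The share of peaks called against both controls of a replicate differed between members and other peaks with a sign that depended on the control in replicate 1. Members minus other peaks was 8.11 percentage points (4.09 to 12) in R1-Input and -13.8 (-16.7 to -10.8) in R1-LacZ. It was 1.58 points (0.716 to 2.68) in R2-Input and -0.482 (-10.4 to 4.34) in R2-LacZ, where the interval included 0 and the value was 2.44 at an E value of 1e-10 and 0.135 with 400 bp searched. The opposite directions thus rest on replicate 1. In replicate 1, 7.84% of peaks called against both controls were members, beside 5.78% against Input only and 13.2% against LacZ only. The 2 signs restate this order of shares and are not a separate result. The lists of a replicate share the same pull-down library, and the reason for the difference between the controls was not tested.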

How the results depend on the processing

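Of 380 values under 15 alternatives, 313 moved by less than the counting interval. In 14 the direction turned (4 in R1-Input, 1 in R2-Input and 9 in R2-LacZ), and in 2 of these the interval of the value as reported had not included 0, or 1 for the ratio. In what follows, groups of 4 values are R1-Input, R1-LacZ, R2-Input and R2-LacZ, and groups of 3 omit the last. These 2 were the ratio to windows in R1-Input with GC-weighted windows (1.16) and the width difference in R2-Input with 400 bp searched (-1 bp), where a fixed width removes the larger target of wide peaks. GC weighting moved the ratio to 1.19 and 1.2 in R1-LacZ and R2-Input. The share with a hit was 9.8%, 15.2%, 12.3% and 20.4% at an E value of 1e-3, and 3.6%, 5.47%, 4.37% and 9.12% at 1e-10. It was 7.48%, 11.7% and 9.25% with word size 7, 5.96%, 9.39% and 7.49% with at least 50% of the stretch aligned, and 7.39%, 11.5% and 9.19% with each list as its own database. In R2-LacZ it was 10.8% with 400 bp searched. With 400 bp searched, the width differences were 4, 0 and -20 bp in the remaining lists, the share scoring at least 60 differed by -0.487 points in R1-Input, and the share called against both controls by 0.713 in R2-Input. Among the higher-scoring peaks (median score or above), the share with a hit was 11.6% (R1-LacZ) and 9.06% (R2-Input), the median score difference -0.14 and 1.29 (against Input, replicates 1 and 2), the share scoring at least 60 differed by 1.12 points (R1-LacZ), the overlap with the other replicate by -1.3 and -0.661 (against Input), both controls by -16.8 (R1-LacZ), width by 47 and 31.5 bp (R1-LacZ, R2-Input), and GC by 5.25 points (R1-Input). Against bodies of protein-coding genes, the gene body difference was 12.7, 7.45 and 8.91 points, and at 1e-10 it was 7.94 in R2-Input. GC differed by 4.61 points at 1e-10 in R1-LacZ. Median identity was 78.7%, 78.7% and 78.7% at 1e-10, and 77.3%, 77.3% and 77.3% with at least 50% of the stretch aligned. Copies under a peak were 0.142%, 0.246%, 0.319% and 0.0146% at 1e-10, 0.0724%, 0.124%, 0.162% and 0.00628% with the higher-scoring peaks, and 0.0854%, 0.15%, 0.19% and 0.00742% with whole copies inside. In R2-LacZ, where none of these differences had an interval that excluded 0, the other turned values were a median score difference of -0.3 at 1e-10 and -1.55 with 400 bp, a share scoring at least 60 of -2.4 with at least 50% of the stretch aligned and -7.97 with 400 bp, both controls 2.44 at 1e-10 and 0.135 with 400 bp, and gene body -0.392 with at least 50% aligned and -1.4 with each list as its own database. Overlap with the other replicate turned to 0.154 in R1-Input with a reciprocal overlap of 50%. The cause of these shifts was not tested.

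Leaving out a replicate gave shares with a hit of 6.82% to 8.54% against Input and 10.7% to 14.6% against LacZ. Overlap with the other replicate differed by -0.285 to -0.241 points against Input and -1.62 to -0.0544 against LacZ, and both controls by 1.58 to 8.11 against Input and -13.8 to -0.482 against LacZ. With the lists of both replicates summed, the last difference was 0.983 (-0.767 to 2.84) against Input and -12.6 (-15.5 to -9.61) against LacZ. Without replicate 1 the LacZ difference lost its call, and with either replicate left out the Input interval excluded 0. The summed Input value lies below that of each replicate. The sum ignores the replicate, although 50.4% (R1-Input) and 2.05% (R2-Input) of all peaks were called against both controls. It is therefore not an average of the 2 replicates. No paired analysis was possible because the results come from no test and each list is 1 replicate. Depth is unknown, R2-LacZ has 53 members, and the score scale is not stated.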
